A study of Arabidopsis thaliana with 24 samples.

Results

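Of the 33602 genes counted in Arabidopsis shoots, 79 were low in the EXPA1 OE line whether or not the line had received dexamethasone (Dex), the synthetic glucocorticoid that switches on its added EXPA1 gene. The members were selected on measured values: CPM (a gene's counts scaled by the total of its library) was averaged over 4 libraries per group, and the log2 ratio of EXPA1 OE over WT was taken after adding 0.5 to each mean. A gene was kept if it reached a mean of 1 CPM in each WT group, as 17564 genes did, and if its ratio was at or under -0.8 in each of the comparisons made without Dex, at 3 h of induction and at 7 days. The genotype ratios below therefore describe the choice and carry no test.

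Shoots were taken from seedlings of ecotype Col-0 that were 7 days old. WT and EXPA1 OE line 8-4 both grew on MS medium and either received no Dex, a 3 h Dex induction, or Dex throughout the 7 days, which gave 6 groups of 4 biological replicates and 24 libraries. In the line, a Dex-dependent transcription factor driven by the RPS5A promoter, which is active in dividing tissue, turns on EXPA1, an α-expansin that loosens cell walls (CWs). All EXPA1 OE plants came from the single line 8-4, so that effects of the transgene and of other features of that line cannot be told apart. No mock treatment of 3 h is named in the labels, so Dex and the handling that goes with a short treatment cannot be told apart either.

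Most members belong to the seed programme, to the use of stored oil or to flavonoid synthesis. In maturing seeds, the B3 transcription factor ABI3 and abscisic acid (ABA) drive storage proteins, oleosins that coat oil bodies, and late embryogenesis abundant (LEA) proteins that protect the drying embryo. After germination the storage oil is turned into sugar through the glyoxylate cycle, whose own enzymes are isocitrate lyase and malate synthase, and the seed programme is silenced. Flavonoids and anthocyanins are phenolic pigments and UV screens made from phenylalanine in cotyledons and leaves.

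The libraries held 33618187 to 82187304 estimated counts. EXPA1 stood at 199 to 537 CPM in WT without Dex and at 379 to 470.1 CPM in the line without Dex, so these ranges overlapped, and it reached 11474 to 19545 CPM in the line with Dex. Reads of the added and the endogenous EXPA1 cannot be told apart. The 7 shoot markers, all at 1 CPM or more, summed to 50300.0 to 59100.0, 47300.0 to 52100.0 and 48300.0 to 54100.0 CPM in WT (no Dex, 3 h and 7 days) and to 51600.0 to 54300.0, 36600.0 to 43800.0 and 42800.0 to 53000.0 CPM in the line. The 9 root markers summed to 77.9 to 108 CPM in WT and 67.5 to 120.0 CPM in the line. The shoot markers were thus lowest in the line at 3 h, and their part in the results was not tested. In bulk tissue, fewer cells of a type and less RNA per cell cannot be told apart.

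Several libraries stood apart for the members before any comparison. Replicate 1 of the line at 7 days was the lowest of its group for the seed genes, the glyoxylate cycle and the flavonoid genes alike. In WT without Dex, replicate 2 was the lowest for the seed genes, and in WT at 3 h replicates 1 and 2 lay below replicates 3 and 4. In WT at 3 h the rRNA gene AT3G41768 held 17413 and 19296 CPM in replicates 1 and 2, against 5353 and 6924 CPM in replicates 3 and 4. Library totals at 7 days ran from 33618187 (replicate 1) to 39958010 in the line and from 58134034 to 79909613 in WT. The part of rRNA and depth in these differences was not tested. Across members the median SD of log2 CPM within a group was 1.01 in the line at 7 days, against 0.164 over all 17564 genes, and 0.645 against 0.105 in WT at 3 h. In every group the median of the members was above that of all genes. Without replicate 1 of the line at 7 days, 72 of the 79 members were still selected, and the median ratio at 7 days was -1.44 in place of -1.76. The 7 members lost had ratios at 7 days of -0.42 (ICL), -0.53 (SQP1), -0.65 (BBX18), -0.66 (XTH31), -0.70 (TT5), -0.72 (PER1, a peroxiredoxin of seeds) and -0.75 (HSP70) without it.

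The threshold was passed in single conditions far more often than in all 3. Without Dex 411 genes lay at or under -0.8, after 3 h 987 and after 7 days 416, while 79 did so throughout. At or over 0.8 throughout lay 4 genes. The minimum of 1 CPM in each WT group applied to these 4 too. It leaves out genes near 0 in WT and high in the line, so 79 and 4 cannot be compared. Just inside were SQP1 with a highest ratio of -0.81, ICL with -0.81 and AT3G24460 with -0.81. Just outside were PAL1, the entry enzyme of phenylpropanoid synthesis, with -0.80, AT3G44450 with -0.78 and UGT78D1, a flavonol rhamnosyltransferase, with -0.78. Over all 17564 genes the median ratios were 0.08, 0.03 and 0.05 without Dex, at 3 h and at 7 days, and over the 79 members they were -2.29, -1.41 and -1.76. The ratio was lowest without Dex for 49 members, at 3 h for 15 and at 7 days for 15.

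All 4 libraries of the line lay below all 4 WT libraries for 69 of the 79 members without Dex (6.24% of all genes did so), for 53 at 3 h (22.0%) and for 51 at 7 days (9.47%). These shares follow from the selection and are given as a description. Only 3 members kept all 12 libraries of the line below all 12 WT libraries, as did 0.0569% of all genes: the albumin gene SESA5, the chitinase gene AT2G43620 and AT5G56220. When each library was left out in turn and the selection repeated, 66 to 87 genes were selected and 46 of the 79 members were selected every time. These 46 included all 9 storage and oil body genes and 9 of 11 flavonoid genes, but 0 of 4 glucosyltransferase and P450 genes and 0 of 3 CW genes. Without WT replicate 1 of the no-Dex group 66 were selected. Leaving out replicate 2 at 3 h (rRNA gene AT3G41768 at 54435 CPM) and replicate 1 at 7 days of the line together gave 78, of which 70 were among the 79.

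**Figure D1:**
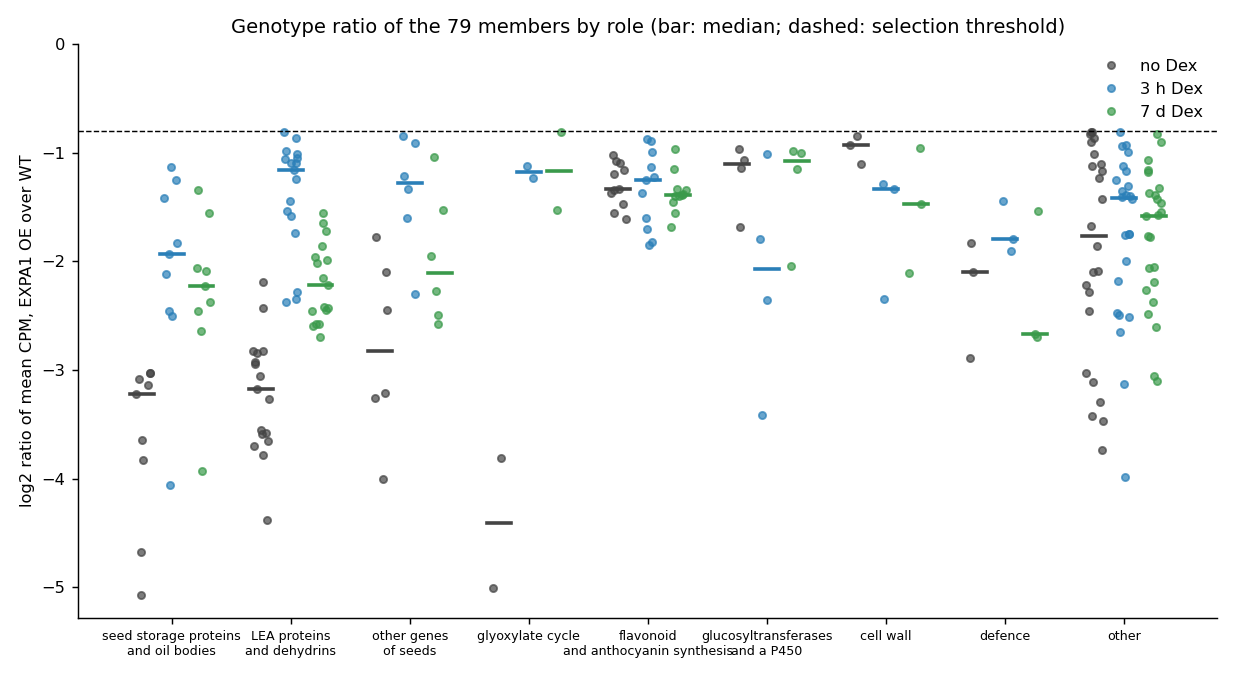
Log2 ratio of mean CPM (EXPA1 OE over WT, 0.5 added to each mean) of the 79 members without Dex, after 3 h and after 7 days of Dex, by role; each point is 1 gene, bars are medians and the dashed line is the selection threshold of -0.8. The medians of the seed genes and the glyoxylate cycle were lowest without Dex, while those of the flavonoid genes differed little between the 3 conditions. The 0.5 added shrinks ratios of genes at low levels, as for many seed genes at 3 h.

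The seed programme gave the largest share of the members, with 9 genes of storage proteins and oil bodies, 17 LEA and dehydrin genes and 6 other genes of seeds. Their median ratios were -3.22, -3.17 and -2.83 without Dex, -1.93, -1.16 and -1.28 at 3 h, and -2.23, -2.22 and -2.11 at 7 days. Summed over these 32 genes, the 4 WT libraries without Dex held 895, 522, 1157 and 1148 CPM and those of the line 61.5, 77.4, 107 and 119.8 CPM. At 7 days the sums were 933, 1123, 734 and 821 CPM in WT and 53.7, 272, 313 and 186 CPM in the line. The groups did not overlap in either condition. After 3 h, WT held 64.8, 117, 302 and 279 CPM and the line 31.4, 73.6, 58.2 and 43.9 CPM, and here WT replicate 1 lay within the range of the line.

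SESA5 (AT5G54740, chromosome 5, 22238358 to 22239187 of TAIR10), a 2S albumin that stores nitrogen and sulphur, had the lowest mean ratio of all members. In WT it stood at 12.7, 20.1, 25.3 and 19.4 CPM without Dex, 3.49, 6.32, 27.8 and 16.7 CPM at 3 h and 13.2, 15.9, 17.1 and 24.6 CPM at 7 days. In the line it stood at 0.0602, 0.146, 0.243 and 3.14 CPM without Dex, 0.0202, 0.504, 0.725 and 0.118 CPM at 3 h and 0.833, 0.347, 1.13 and 0.475 CPM at 7 days. No library of the line reached any WT library, and within the line replicate 4 without Dex was far above the other 3. The ratios were -3.83, -4.06 and -3.93 without Dex, at 3 h and at 7 days.

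CRA1, the 12S globulin cruciferin A, had the highest WT level of the 9 storage and oil body genes per length (41.0 CPM per kb of exon). WT libraries held 106, 48.0, 94.8 and 125 CPM without Dex, 9.73, 14.9, 57.0 and 56.2 CPM at 3 h and 93.4, 116, 78.0 and 82.1 CPM at 7 days. Those of the line held 0.918, 1.17, 2.98 and 7.70 CPM without Dex, 0.425, 16.3, 11.6 and 1.99 CPM at 3 h and 0.773, 24.3, 38.7 and 13.3 CPM at 7 days. The groups were clear of each other without Dex and at 7 days but overlapped at 3 h, where replicate 2 of the line lay above WT replicates 1 and 2. CRU3, the cruciferin with the lowest ratio of any member without Dex, had ratios of -5.07, -2.46 and -2.38 and also overlapped at 3 h. The vicilin gene PAP85 (-3.22, -2.51 and -2.09), the albumin gene SESA2 (-3.08, -1.83 and -2.64) and the oleosin genes OLEO1 (-3.03, -1.93 and -1.35) and OLEO2 (-3.13, -1.13 and -1.56) followed. SESA2 lies beside near-identical albumin copies, so the split of its counts among them is uncertain, and it had no counts in 2 libraries of the line at 7 days.

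The LEA group held EM1, a group 1 LEA protein of late maturation, RAB18, an ABA-responsive dehydrin, and 15 further genes. EM1 stood at 19.5, 13.7, 28.7 and 28.4 CPM in WT without Dex, 0.558, 2.06, 5.49 and 3.36 CPM at 3 h and 24.2, 30.8, 15.5 and 20.7 CPM at 7 days. In the line it stood at 0.436, 0.759, 1.81 and 2.63 CPM without Dex, 0.101, 0.216, 0.145 and 0.135 CPM at 3 h and 0.654, 4.86, 4.75 and 2.08 CPM at 7 days. The groups did not overlap in any condition, and its ratios were -3.59, -2.37 and -2.70. At 3 h every library of the line was under the 0.5 CPM added to each mean, which shrinks that ratio. RAB18 was less depressed, with ratios of -2.19, -1.45 and -1.65. Across the 17 genes the ratio ran from -4.38 to -2.19 without Dex, from -2.37 to -0.81 at 3 h and from -2.70 to -1.56 at 7 days. Not every gene whose product names a LEA protein or dehydrin was low. Of 48 such genes that reached 1 CPM in each WT group, 15 were members, and the medians of the 48 were -0.28, -0.45 and -0.20. The 48 were found by product name alone, whether or not they act in seeds.

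Regulators of the seed programme were among the low genes too. ABI3 stood at 5.25, 2.83, 5.18 and 4.93 CPM in WT without Dex, 0.892, 1.49, 2.18 and 1.71 CPM at 3 h and 3.89, 4.71, 3.50 and 4.17 CPM at 7 days. The line held 0.857, 0.672, 1.06 and 1.29 CPM without Dex, 0.425, 0.306, 0.435 and 0.388 CPM at 3 h and 0.446, 0.880, 0.697 and 0.701 CPM at 7 days. The groups were apart in each condition, with ratios of -1.78, -1.22 and -1.95. SOM, a CCCH zinc finger protein that restrains germination in the dark, had ratios of -2.10, -0.91 and -1.52. Of 10 ABA and seed maturation regulators listed after the data had been seen, 5 reached 1 CPM in each WT group and 2 of them, ABI3 and SOM, were members. ABI5, a bZIP factor of ABA signalling, missed the threshold only at 3 h (-1.70, -0.22 and -1.32). The repressors VAL1 and VAL2, which silence the seed programme, had ratios between 0.02 and 0.32. On a list of 22 seed storage and LEA genes, 16 reached 1 CPM in each WT group, 13 of these were members, and the median ratios of the 16 were -3.11, -1.52 and -2.02.

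Isocitrate lyase (ICL, AT3G21720, chromosome 3, 7652487 to 7656011) and malate synthase (MLS) were the only glyoxylate cycle genes selected, and ICL had the widest range of ratios of all members. ICL stood at 449.8, 202, 675 and 684 CPM in WT without Dex, 142, 182, 276 and 397 CPM at 3 h and 421, 577, 328 and 381 CPM at 7 days. In the line it stood at 7.52, 10.14, 20.3 and 22.8 CPM without Dex, 31.8, 69.96, 239 and 117 CPM at 3 h and 14.6, 99.0, 349.7 and 510.1 CPM at 7 days. Without Dex the lowest WT library was far above the highest library of the line, whereas at 3 h and at 7 days the groups overlapped. The ratios were -5.00, -1.12 and -0.81, the last just inside the threshold, and ICL was no longer selected when replicate 1 or replicate 2 of the line, or replicate 2 of WT, was left out at 7 days. MLS gave -3.81, -1.23 and -1.53. The other 16 genes listed for storage oil breakdown and the glyoxylate cycle were no members, and over all 18 the median ratios were -0.22, -0.21 and 0.23.

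**Figure D2:**
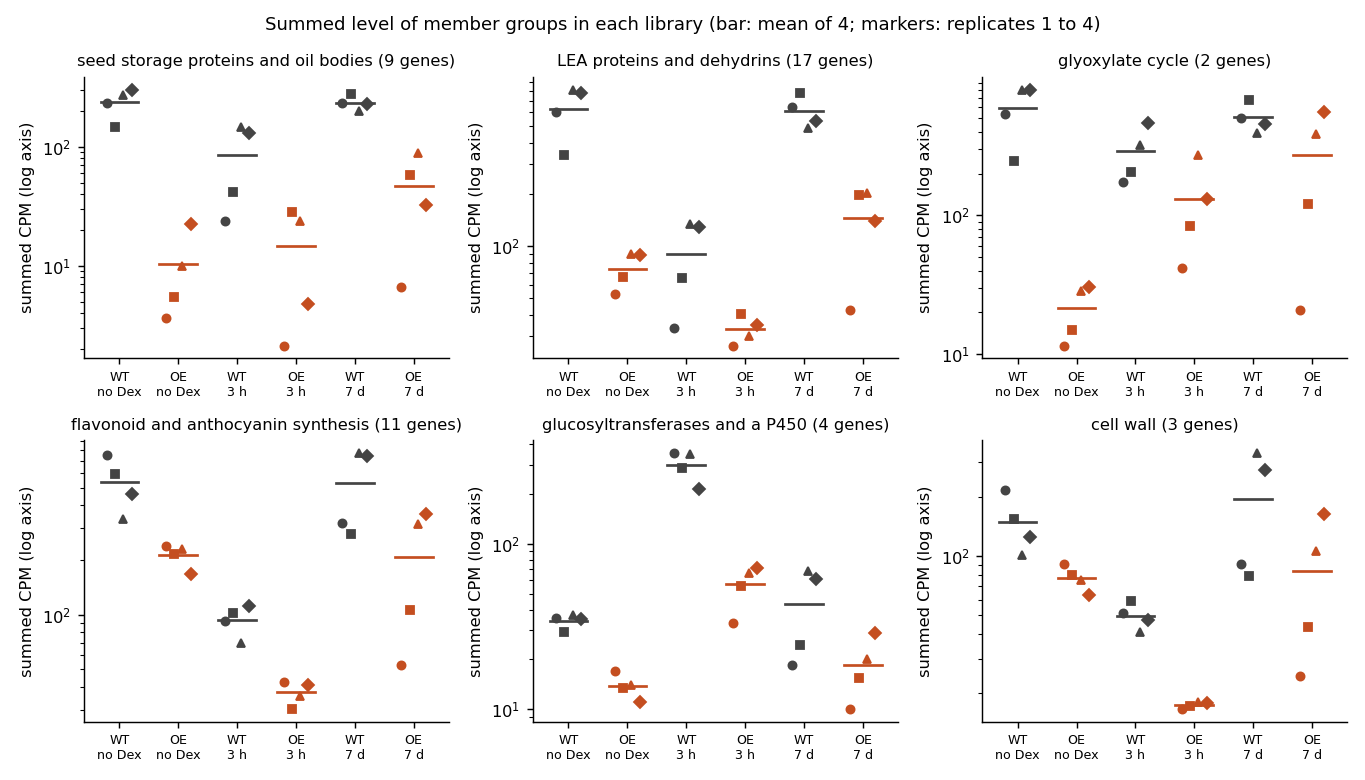
Summed CPM (log axis) of 6 groups of members in each library, with WT in grey and EXPA1 OE in orange; bars are means of 4 and the marker shapes are replicates 1 to 4. Storage, LEA and glyoxylate genes of the line were low without Dex, and replicate 1 of the line at 7 days was the lowest of its group in all 6 panels.

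Flavonoid and anthocyanin synthesis contributed 11 members, with median ratios of -1.34, -1.26 and -1.39 without Dex, at 3 h and at 7 days. They comprised early steps (TT5, the chalcone isomerase, and F3H), the anthocyanin branch (DFR and LDOX), the sugar and acyl transferases UF3GT, AT4G14090, AT1G06000, AT5MAT, AT1G03940 and AT1G03495, and GSTF12, which carries anthocyanins to the vacuole. Summed over the 11 genes, WT libraries held 755, 596, 334 and 459 CPM without Dex and 92.0, 102, 69.6 and 112 CPM at 3 h. The line held 237, 215, 231 and 167 CPM and 42.6, 30.3, 35.9 and 41.1 CPM, and neither condition showed an overlap. At 7 days WT held 319.9, 278, 772 and 745 CPM and the line 53.2, 106, 316 and 357 CPM. In both genotypes replicates 1 and 2 were lower there than replicates 3 and 4, so the groups overlapped, while within replicates 1 and 2 (mean 299 CPM against 79.4 CPM) and within replicates 3 and 4 (mean 758 CPM against 336 CPM) the line was lower. This split of replicates 1 and 2 against 3 and 4 does not show a pairing by number, although in each of the 4 numbered pairs the line held less than WT. Without replicate 1 of the line the median ratio at 7 days was -1.05.

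DFR, which reduces dihydroflavonols to leucoanthocyanidins, stood at 76.7, 60.2, 49.7 and 63.7 CPM in WT without Dex, 5.94, 8.55, 4.02 and 10.2 CPM at 3 h and 45.3, 41.2, 89.9 and 100.2 CPM at 7 days. The line held 22.6, 23.7, 28.5 and 20.8 CPM without Dex, 2.14, 0.900, 1.74 and 1.89 CPM at 3 h and 5.92, 12.4, 44.7 and 41.6 CPM at 7 days. Its ratios were -1.37, -1.82 and -1.39, and the groups overlapped only at 7 days. LDOX, the next enzyme of the branch, had -1.19, -1.85 and -1.40, and F3H had -1.34, -0.88 and -1.15. Of 27 pathway genes listed after the data had been seen, 20 reached 1 CPM in each WT group and 11 were members. Chalcone synthase (CHS), the first enzyme, missed the threshold only without Dex (-0.76, -0.94 and -1.09). The regulator TT8 was low without Dex and at 7 days but not at 3 h (-1.26, 0.80 and -1.20), and TTG1, its partner, had 0.26, -0.19 and 0.13.

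The 3 glucosyltransferase genes and CYP81D11, a cytochrome P450 gene, had their lowest group median at 3 h (-1.11, -2.07 and -1.08). DOGT1 glucosylates the fungal toxin deoxynivalenol and brassinosteroids. It stood at 20.6, 14.3, 15.3 and 13.2 CPM in WT without Dex, 186, 144, 155 and 117 CPM at 3 h and 10.8, 11.95, 39.6 and 33.0 CPM at 7 days. The line held 7.41, 6.64, 8.45 and 6.67 CPM without Dex, 15.9, 26.2, 36.3 and 37.5 CPM at 3 h and 7.13, 9.79, 12.1 and 17.597 CPM at 7 days. WT was above the line without Dex and at 3 h, and the groups overlapped at 7 days. CYP81D11 stood at 100.2, 83.1, 103 and 63.9 CPM in WT at 3 h and at 4.41, 8.01, 8.24 and 10.4 CPM in the line, with ratios of -1.68, -3.42 and -0.99. UGT73C1 had -0.96, -1.79 and -1.15 and UGT74E2, which glucosylates indole-3-butyric acid, had -1.14, -1.01 and -2.04.

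CW genes among the members were XTH31, a xyloglucan-modifying enzyme, with ratios of -0.93, -1.29 and -0.95, the pectin lyase-like gene AT1G60590 with -0.85, -2.35 and -2.11, and AT1G23205, an inhibitor of pectin methylesterase or invertase by its product name, with -1.11, -1.33 and -1.47. Summed over these 3 genes, WT held 90.7, 78.8, 334 and 275 CPM at 7 days and the line 24.5, 43.2, 106 and 163 CPM, where replicates 1 and 2 of both genotypes were again below replicates 3 and 4 and the groups overlapped. At 3 h WT held 51.5, 58.7, 41.1 and 47.3 CPM and the line 16.6, 17.2, 18.0 and 17.77 CPM, with no overlap. The ammonium transporter gene AMT1;2 resembled AT1G60590 in being lowest at 3 h. It stood at 88.7, 76.3, 81.9 and 61.3 CPM in WT at 3 h and at 6.63, 7.87, 8.64 and 10.3 CPM in the line, and its ratios were -1.12, -3.13 and -1.55. Without Dex (WT 37.6 to 122 CPM, line 23.2 to 46.6 CPM) and at 7 days (WT 19.1 to 177 CPM, line 7.70 to 60.5 CPM) its groups overlapped. SQP1, a squalene epoxidase-like gene, had -0.81, -2.65 and -0.90. The heat shock gene HSP70 had -2.10, -1.30 and -1.07 as the 1 member among 16 heat shock genes that reached 1 CPM in each WT group. Of these 16, 8 lay at or under -0.8 without Dex, 4 at 3 h and 3 at 7 days. Their median ratios were -0.76, -0.49 and -0.02.

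The gene AT5G56220, chromosome 5, 22754818 to 22757920 of TAIR10 on the plus strand, was low by more than 3 on the log2 scale in every condition. It is annotated as a P-loop nucleoside triphosphate hydrolase, and its role in shoots is not part of the annotation. WT libraries held 13.0, 14.0, 14.3 and 14.4 CPM without Dex, 24.7, 25.6, 23.58 and 26.9 CPM at 3 h and 18.4, 17.9, 11.8 and 13.7 CPM at 7 days. Those of the line held 0.707, 1.26, 1.04 and 0.872 CPM without Dex, 1.01, 0.774, 1.14 and 1.55 CPM at 3 h and 1.07, 1.57, 1.85 and 0.926 CPM at 7 days. Every library of the line lay under 2 CPM with or without Dex, and the ratios were -3.30, -3.99 and -3.11. Its neighbours were not low with it: WIP2 upstream had ratios of 0.27, -0.42 and 0.02. Downstream, the adjacent PRA1.G2 had 0.13, 0.29 and -0.43 at group means of only 0.325 to 0.754 CPM. The next gene, AT5G56240, had 0.16, -0.11 and 0.10.

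**Figure D3:**
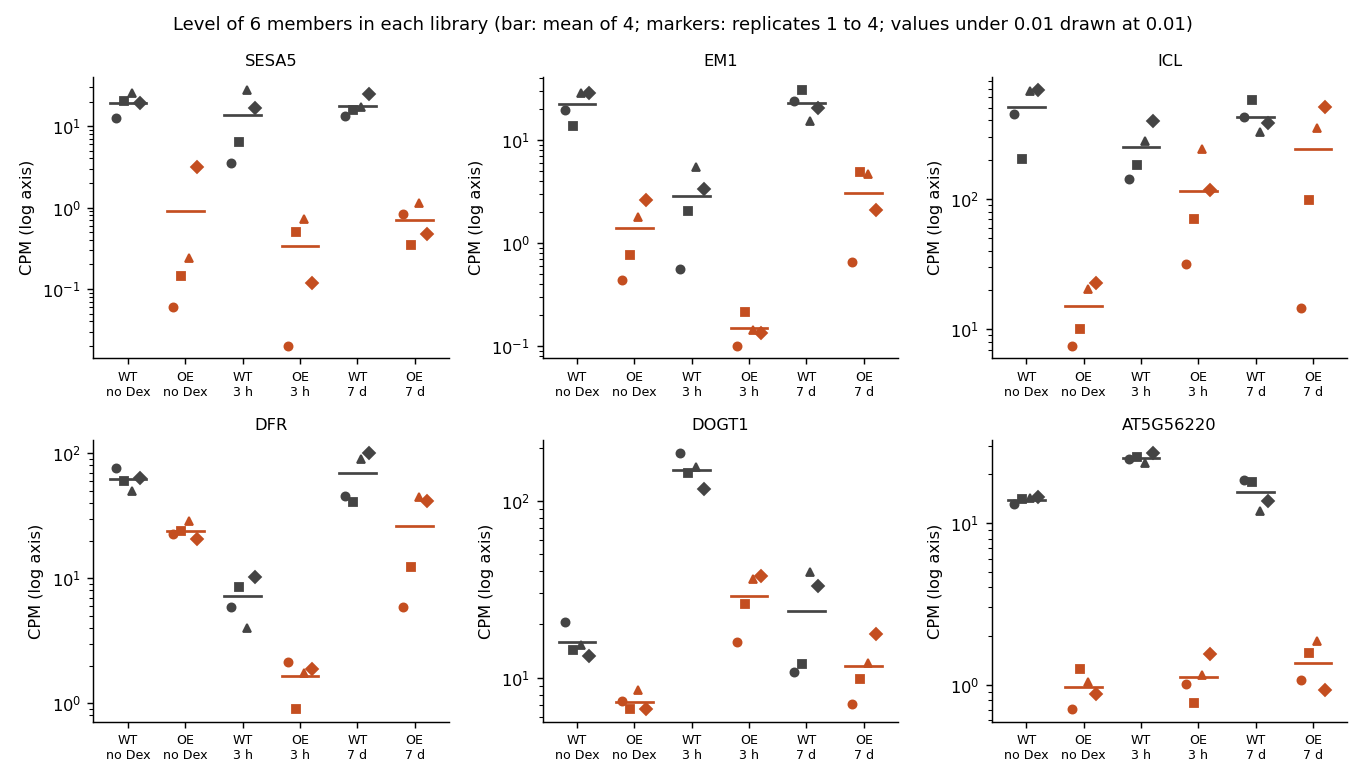
CPM (log axis) of 6 members in each library, WT in grey and EXPA1 OE in orange, with bars for the mean of 4 and marker shapes for replicates 1 to 4. AT5G56220 and SESA5 kept every library of the line below every WT library, while ICL of the line ran from 7.52 CPM without Dex to 510.1 CPM at 7 days.

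Among 3 defence genes, the chitinase gene AT2G43620 stood at 23.605, 42.8, 16.0 and 17.1 CPM in WT without Dex, 33.7, 33.7, 15.1 and 34.8 CPM at 3 h and 32.1, 35.3, 30.9 and 44.3 CPM at 7 days. The line held 4.90, 7.95, 9.79 and 3.93 CPM without Dex, 2.47, 8.75, 9.89 and 11.2 CPM at 3 h and 1.22, 1.15, 6.78 and 11.6 CPM at 7 days, and no library of the line reached a WT library. The plant defensin gene LCR67 had ratios of -2.89, -1.91 and -2.70 and NSP2, a nitrile specifier of glucosinolate breakdown, had -2.10, -1.44 and -1.54. The remaining 24 members, with medians of -1.77, -1.42 and -1.58, held few genes of a shared role.

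Some of these 24 followed the seed genes. AT1G04560, an AWPM-19-like membrane protein gene, stood at 25.6, 10.4, 36.6 and 34.1 CPM in WT without Dex and at 0.421, 1.02, 2.01 and 2.701 CPM in the line, with ratios of -3.74, -2.0 and -2.60 and no overlap in any condition. The papain-like protease gene AT3G54940 (-3.03, -1.75 and -2.37), the rubber elongation factor-like gene AT2G47780 (-2.09, -1.40 and -2.27) and the uncharacterised gene AT1G03106 (-3.11, -2.51 and -2.19) were other examples. Others were only moderately low, among them BBX18, a B-box zinc finger protein (-0.86, -1.41 and -0.83), GRF7, a growth-regulating transcription factor (-0.83, -1.43 and -1.32), and the homeodomain-like gene ASG4 (-0.90, -1.17 and -1.57). GRF7 was near the limit of the selection in WT, with a mean of 1.2 CPM.

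The same 24 include AT2G01010, an 18S rRNA gene of a multicopy family whose reads cannot be assigned to 1 copy. It stood at 159, 7.61, 1.33 and 2.21 CPM in WT at 3 h, where replicate 1 alone set its mean, and with the exon counts its mean ratio was 0.25 in place of -2.19, so its membership is uncertain.

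The response to Dex within each genotype is a contrast that the selection did not form, but the means of the same groups chose the members. Values of a group that were high or low by chance therefore enter both. The choice of members also limits how far the 2 genotypes can differ in this response. The shares of members beside those of all genes are thus a description and no separate evidence. In WT after 3 h, 53 of the 79 members fell and 3 rose (edgeR quasi-likelihood test, Benjamini-Hochberg adjusted p below 0.05 with a change of 1 or more on the log2 scale), against 5.38% of all 20571 genes tested that fell and 3.57% that rose. The median log2 fold change of the members was -1.87, and 0.02 over all genes tested. All 17 LEA genes, all 11 flavonoid genes, all 6 other seed genes and all 3 CW genes fell, as did 4 of 9 storage genes. With 1 of the 8 libraries left out at a time, 51 to 56 members fell. The largest fall was that of the LEA gene AT4G36600 (-4.09 ± 0.52 SE, adjusted p = 4.53e-04).

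Among the flavonoid genes, DFR changed by -3.18 ± 0.25 (SE, adjusted p = 3.87e-05), LDOX by -3.14 ± 0.23 (SE, adjusted p = 2.62e-05) and F3H by -3.08 ± 0.23 (SE, adjusted p = 2.67e-05). HSP70 changed by -2.04 ± 0.14 (SE, adjusted p = 1.62e-05). ABI3 changed by -1.58 ± 0.28 (SE, adjusted p = 0.0024) and EM1 by -3.02 ± 0.51 (SE, adjusted p = 0.00196). The members that rose were UGT73C1 (4.39 ± 0.35 SE, adjusted p = 3.63e-05), CYP81D11 (3.50 ± 0.36 SE, adjusted p = 1.46e-04) and DOGT1 (3.21 ± 0.19 SE, adjusted p = 9.31e-06) of the glucosyltransferase and P450 group. By the selection the line lay under WT in all of these genes, whether their WT level had dropped after 3 h or, as in 3 of them, risen.

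In WT after 7 days 0 of 79 members were called in either direction by edgeR, against 0.00482% of 20768 genes that rose and 0.00% that fell. DESeq2 also called 0 members, against 0.0584% of 22269 genes that rose and 0.0674% that fell. With either tool, 0 calls were thus near the share over all genes. At an unadjusted p under 0.05 in edgeR, 1 member fell and 0 rose, and no share over all genes was computed for this count. The median log2 fold change was -0.07, and single members ran from -1.06 to 1.06. The 3 h and the 7 day comparison share the libraries without Dex.

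In the EXPA1 OE line after 3 h, 73 members passed the filter on low counts, and 38 fell while 5 rose (9.06% and 9.05% of 20548 genes did so). The other 6 were not tested because they were too low in the line. All 11 flavonoid genes fell, by 1.56 to 4.29 on the log2 scale, as did 10 of 17 LEA genes, 2 of 6 other seed genes and 1 of 8 storage genes tested. DFR changed by -3.90 ± 0.16 (SE, adjusted p = 6.87e-09) and LDOX by -4.08 ± 0.18 (SE, adjusted p = 9.52e-09). UGT73C1 (3.85 ± 0.26 SE, adjusted p = 2.55e-07), DOGT1 (1.95 ± 0.23 SE, adjusted p = 1.65e-05) and CYP81D11 (1.95 ± 0.24 SE, adjusted p = 2.92e-05) rose here too. ICL (2.84 ± 0.55 SE, adjusted p = 7.65e-04) and MLS (1.45 ± 0.35 SE, adjusted p = 0.00363) rose in the line, whereas in WT ICL had a log2 fold change of -1.09 ± 0.42 (SE, adjusted p = 0.0678) and MLS of -1.23 ± 0.39 (SE, adjusted p = 0.0336).

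**Figure D4:**
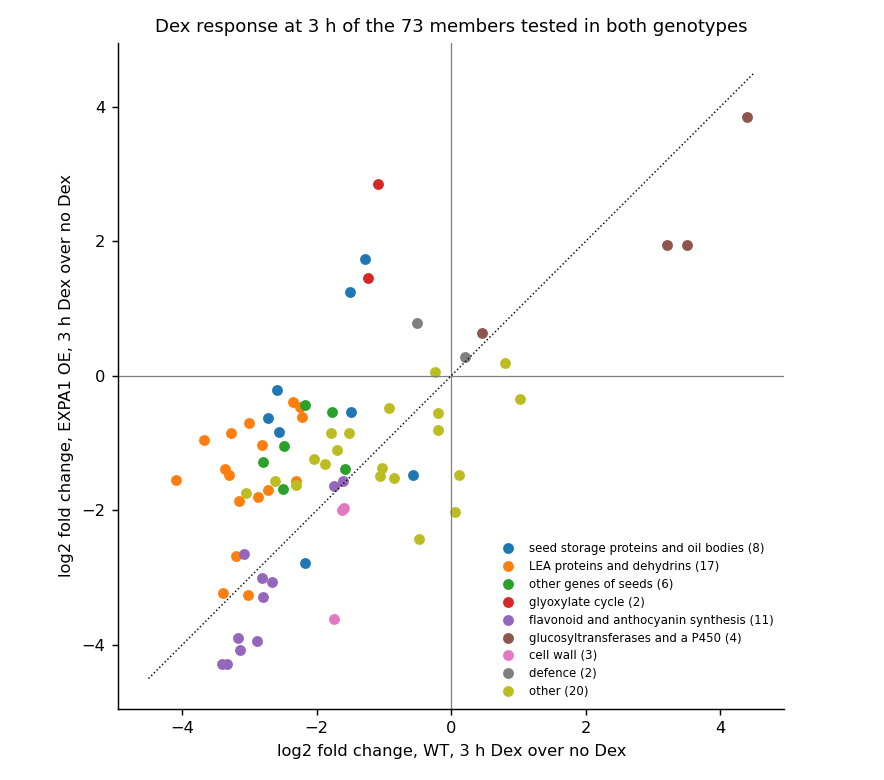
Log2 fold change after 3 h of Dex over no Dex in WT (x axis) and in the EXPA1 OE line (y axis) for the 73 members tested in both, coloured by role; the dotted line marks equal change. The 46 members above it, among them ICL and MLS, fell less or rose more in the line by fitted value. This position compares ratios that the selection used, so the count is no evidence that the genotypes differ. The difference was not tested, and no share over all genes is given. The flavonoid genes lie in the lower left in both genotypes.

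After 7 days of Dex 75 members were tested in the line, and 6 rose while 1 fell (4.80% and 1.44% of 20104 genes). ICL (3.93 ± 0.94 SE, adjusted p = 0.0143), MLS (2.13 ± 0.54 SE, adjusted p = 0.0184), OLEO2 (1.91 ± 0.44 SE, adjusted p = 0.0116), CYP81D11 (1.12 ± 0.27 SE, adjusted p = 0.0151), the LEA gene AT2G42560 (1.83 ± 0.53 SE, adjusted p = 0.0309) and AT1G54870, a Rossmann-fold dehydrogenase-like gene (2.19 ± 0.72 SE, adjusted p = 0.04997) rose. The member that fell was the uncertain rRNA gene AT2G01010 (-3.09 ± 0.96 SE, adjusted p = 0.0403). No flavonoid gene was called, with a median of 0.00. The count depends on replicate 1 of the line at 7 days, since without it 27 of 75 members rose (6.24% of 20362 genes did so) and 0 fell (1.47%). Without replicate 2 or 3 of that group 0 fell (1.25% and 1.60% of all genes), and without its replicate 4 2 fell (1.74%). Without replicate 1 or 2 of the line without Dex, 3 members rose (4.61% and 4.38% of all genes). DESeq2 called 15 of 78 members higher, against 6.03% of 22938 genes.

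No test of whether the Dex response differed between the genotypes is given, because that difference is the difference of 2 ratios that the selection held at or under -0.8. The responses of single members are given side by side. These members were named after their values had been seen. A call in 1 genotype only is no evidence that the genotypes differ. At 3 h the LEA gene AT3G15670 had a log2 fold change of -3.67 ± 0.48 (SE, adjusted p = 5.01e-04) in WT and of -0.96 ± 0.29 (SE, adjusted p = 0.0111) in the line. The LEA gene AT2G42560 had -3.27 ± 0.45 (SE, adjusted p = 6.36e-04) in WT and -0.84 ± 0.37 (SE, adjusted p = 0.061) in the line, where neither passed both thresholds. AMT1;2 had -2.02 ± 0.20 (SE, adjusted p = 4.61e-06) in the line and 0.05 ± 0.33 (SE, adjusted p = 0.914) in WT. AT1G60590 changed by -3.61 ± 0.24 (SE, adjusted p = 2.14e-07) in the line and by -1.74 ± 0.30 (SE, adjusted p = 0.00214) in WT. ICL and MLS, which rose in the line at 7 days, were not called in WT at 7 days (-0.33 ± 0.37 (SE, adjusted p = 0.918) and -0.26 ± 0.32 (SE, adjusted p = 0.927)).

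Sequences upstream of the members were read because so many of them moved together. For each gene the 250 bases before the annotated start were searched on both strands, in all 79 members and in 17471 of the genes that reached 1 CPM in each WT group. The RY motif (CATGCA), which B3 factors such as ABI3 are known to bind, lay in 9 of 9 storage and oil body promoters, 4 of 17 LEA promoters and 0 of 11 flavonoid promoters, against 6.12% of all promoters. The core ACGTG of ABA-response elements lay in 17 of 17 LEA promoters, 6 of 9 storage and oil body promoters and 5 of 11 flavonoid promoters, against 26.46% of all. The G-box (CACGTG), which contains that core, lay in 34 of 79 member promoters, against 9.49% of all. The W-box (TTGACC) lay in 5 of 79 against 12.5%, and the telo-box (AAACCCTA) in 0 of 79 against 5.86%. RY and ACGTG were added to the search after the data had been seen. A match describes letters only.

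The upstream sequences of 5 members stand for these groups, read from the TAIR10.1 genome on the strand of the gene, 5′ to 3′, each ending at the base before the annotated start. Capitals mark the RY motif on either strand in the promoters of SESA5 (chr5:22239188-22239437, minus strand) and OLEO1 (chr4:12900180-12900429, plus strand).
SESA5: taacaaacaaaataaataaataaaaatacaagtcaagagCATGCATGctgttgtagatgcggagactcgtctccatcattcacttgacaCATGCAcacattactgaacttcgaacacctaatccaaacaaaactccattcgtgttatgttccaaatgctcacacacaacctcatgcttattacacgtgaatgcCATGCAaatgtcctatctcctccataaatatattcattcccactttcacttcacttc
OLEO1: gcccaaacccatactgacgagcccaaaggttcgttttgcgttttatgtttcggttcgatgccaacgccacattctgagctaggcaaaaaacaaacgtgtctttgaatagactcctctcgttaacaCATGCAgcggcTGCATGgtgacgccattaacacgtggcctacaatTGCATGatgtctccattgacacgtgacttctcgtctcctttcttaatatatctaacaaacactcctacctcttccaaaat
Capitals mark ACGTG on either strand for EM1 (chr3:19214498-19214747, plus strand) and for the LEA gene AT3G02480 (chr3:512062-512311, plus strand), and the G-box for DFR (chr5:17165919-17166168, minus strand).
EM1: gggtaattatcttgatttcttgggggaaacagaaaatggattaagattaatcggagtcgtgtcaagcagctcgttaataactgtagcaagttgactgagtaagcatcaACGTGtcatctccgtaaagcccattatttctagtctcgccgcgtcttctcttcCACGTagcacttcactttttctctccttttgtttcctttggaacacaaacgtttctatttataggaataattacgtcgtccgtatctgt
AT3G02480: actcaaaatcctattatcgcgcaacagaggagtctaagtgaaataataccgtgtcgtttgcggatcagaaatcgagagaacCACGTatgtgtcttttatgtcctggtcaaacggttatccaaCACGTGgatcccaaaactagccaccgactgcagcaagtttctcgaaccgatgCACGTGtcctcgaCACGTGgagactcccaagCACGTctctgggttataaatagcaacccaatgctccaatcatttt
DFR: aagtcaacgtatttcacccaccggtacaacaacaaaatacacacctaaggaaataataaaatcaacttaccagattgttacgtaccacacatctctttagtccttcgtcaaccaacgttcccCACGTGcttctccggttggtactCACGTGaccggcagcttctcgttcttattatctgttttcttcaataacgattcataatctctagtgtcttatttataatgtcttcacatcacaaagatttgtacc
SESA5 has 4 RY matches, of which a pair overlaps, OLEO1 has 3, and the EM1 and AT3G02480 windows have 0. AT3G02480 has 8 matches of ACGTG, counting both strands of each G-box.

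The members were spread over the genome. Chromosomes 1 to 5 held 23, 15, 17, 8 and 16 of them. UGT73C1 and DOGT1 were the only members within 20 kb of each other, and 2.53% of members and 2.90% of all 17564 genes had a member within that distance. The members had a median exon length of 1315 bases against 1604, and a median mean WT level of 16.9 CPM against 15.9. Lists for iron, phosphate and sulphate status, salicylic acid, jasmonate, root hairs, extensins, shoot markers and root markers each held 0 members.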

How the data were processed

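RNA from 24 shoot samples was sequenced as stranded polyA libraries. The authors used Trimmomatic for trimming and STAR for alignment to TAIR10, and deposited expected counts per gene from RSEM (3.82% of values not whole, rounded here for the tests) and a second table of exon counts from featureCounts. The libraries carried molecular identifiers, and whether duplicates were removed is not given in the sources used here. Groups were taken from the sample titles, since the genotype and treatment fields of the labels are interchanged. Biological replicates were named as such by the study.

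Library totals ran from 33618187 to 82187304 estimated counts, and the exon table held 83.3% to 97.8% of them. Dex responses were tested with edgeR 4.0.16 (quasi-likelihood, TMM, filterByExpr, R 4.3.3, limma 3.58.1) on the 8 libraries compared, with Benjamini-Hochberg adjustment over all genes tested. Genes were called at an adjusted p below 0.05 with a change of 1 or more on the log2 scale. The SE given with a fold change is its size divided by the square root of the F statistic of the test, and not a separately fitted error. The tests were tested on simulated data. Between the genotypes at 7 days, deviations of same-numbered libraries from the group means correlated at 0.16 to 0.49 in 4 of 4 pairs. Only 4 of 8 libraries correlated best with their own number there, so a pairing by number was not established, and the labels state none. At 3 h the correlations were lower (0.011 to 0.11), yet 6 of 8 libraries correlated best with their own number. Correlations without Dex were -0.062 to 0.036, and those within a genotype -0.36 to 0.08. Alternatives were the exon counts, DESeq2 1.42.0, RLE size factors, no filter, no fold threshold, a replicate block, each library left out, and other scalings, pseudocounts and thresholds of the selection.

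The members and lists were chosen with earlier results of these data known. Role groups, 3 lists and 4 motifs were added after the data had been seen. Genes were named by rule: the 12 lowest mean ratios, up to 5 calls per contrast and direction by adjusted p, members on the lists, members within 20 kb of each other, 3 genes on either side of the threshold, and the 5 highest WT levels. Other named genes were chosen after their values were seen, for their role or for those values. The exon table's gene coordinates matched TAIR10.1: 98.8% of 83265 introns of genes with 1 transcript model began with GT and ended with AG.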

Additional observations from a re-analysis of the deposited data

Results flagged for a closer look

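In 252 groups of 4 libraries, 13 had 1 library far from the other 3, and chance gives about 1 in 20. In the line without Dex, replicate 4 was high for SESA5 (3.14 CPM, others 0.0602 to 0.243), OLEO1 (1.29 CPM, others 0.117 to 0.199) and the defensin gene LCR67 (2.11 CPM, others 0.0584 to 0.155). In the same group replicate 3 was high for the glycine-rich protein gene AT5G35660 (0.133 CPM, others 0.0292 to 0.0335). In WT without Dex, replicate 2 was low for ABI3 (2.83 CPM, others 4.93 to 5.25) and SOM (7.40 CPM, others 15.3 to 16.8) and high for the summed defence genes (54.0 CPM, others 25.0 to 29.3).

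At 3 h the summed defence genes were low in replicate 1 of the line (3.10 CPM, others 10.7 to 11.9), MLS was high in its replicate 3 (33.3 CPM, others 10.0 to 13.9), and AT2G43620 was low in WT replicate 3 (15.1 CPM, others 33.7 to 34.8). The rRNA gene AT2G01010 was high in WT replicate 1 at 3 h (159 CPM, others 1.33 to 7.61), in WT replicate 4 at 7 days (47.8 CPM, others 1.17 to 2.88) and in replicate 2 of the line without Dex (32.1 CPM, others 2.15 to 2.90).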

How the results depend on the processing

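Exon counts selected 78 genes, TMM-scaled library sizes 86, a pseudocount of 0.1 89, group medians 81 and a threshold of -1 57, against 79, and a minimum of 5 CPM left 34. Of the 79, 74 stayed with exon counts and 71 with medians. With exon counts AT2G01010 had a mean log2 ratio of 0.25 in place of -2.19, and the cause was not tested. DESeq2 called 15 members higher in the line at 7 days (6.03% of all genes). The 1 lower call of the line at 7 days was lost (0) with exon counts. Without 1 library at a time, the members selected ranged from 66 to 87, and those called ranged from 3 to 27 higher and 0 to 2 lower in the line at 7 days. Other ranges were 51 to 56 lower in WT at 3 h and 35 to 44 lower and 4 to 7 higher in the line at 3 h. Of the values of single genes (mean ratios of members and named Dex responses together), 437 counted as the same, 15 moved, 5 lost the call and 1 reversed. A mean ratio has no call and counted as the same if it shifted by less than the SD of its gene within groups. The planned interaction of genotype and Dex and its alternatives are not reported, because the selection used the ratios it compares.

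Within a genotype, Dex and no-Dex libraries of the same number did not deviate together (correlations from -0.36 to 0.08, with at most 4 of 8 libraries correlated best with their own number). In WT at 7 days these correlations ran from -0.36 to -0.06. There the summed flavonoid genes had means of 675 CPM (replicates 1 and 2) and 397 CPM (3 and 4) without Dex, and 299 and 758 CPM at 7 days. The part of this reversed split in the 0 calls of WT at 7 days was not tested. With the replicate number as a block, 5 members were higher (3.26% of all genes) and 0 lower (1.11%) in the line at 7 days, where 4 of 7 calls were kept, and 55 of 56 calls in WT at 3 h and 43 of 43 in the line at 3 h were kept.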
